A study of Mus musculus with 4 samples.

Results

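The genes described here are the nuclear genes of oxidative phosphorylation, chosen by symbol alone: every listed gene whose symbol begins with Ndufa, Ndufb, Ndufc, Ndufs, Ndufv, Uqcr, Atp5 or Cox followed by 4 to 8, together with Sdha, Sdhb, Sdhc and Sdhd. They number 90 of the 21889 genes in the deposited tables. By complex they are 38 genes of complex I, 4 of complex II, 8 of complex III, 18 of complex IV and 15 of complex V. The other 7 match by symbol without being subunits: the complex I assembly factors Ndufaf1 to Ndufaf4, Atp5s, Atp5sl (now named Dmac2, an assembly factor of the distal membrane arm of complex I), and Cox4nb, a subunit of an endoplasmic reticulum membrane complex. Of the 90 genes, 84 had a mean of 1 FPKM or more over the 4 libraries, the minimum used for every ratio below, and are called expressed. FPKM counts sequenced fragments per kilobase of transcript, scaled to the mapped fragments of the library.

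The 4 libraries, 1 per line, come from total RNA of cell lines of BXH-2 mouse acute myeloid leukaemia. B117H and B140H are highly resistant to cytarabine (Ara-C), a nucleoside analogue used against this leukaemia, with labelled IC50 values of about 160 and 60 µg/ml. They were derived by exposure to increasing Ara-C from B117P and B140P, the sensitive parental lines, with labelled IC50 values of about 150 and 110 ng/ml. All 4 lines were passaged without Ara-C before RNA was taken, and B117H with B117P, and B140H with B140P, are each called a lineage here. Each lineage has 1 resistant line, so what resistance shares across lines rests on 2 derivations. With 1 library per line no value has a replicate error, and differences within a lineage are given by size only.

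The inner mitochondrial membrane holds 5 complexes of oxidative phosphorylation. Complex I (NADH dehydrogenase) and complex II (succinate dehydrogenase) pass electrons to coenzyme Q, complex III passes them to cytochrome c, and complex IV (cytochrome c oxidase) passes them to oxygen. Complexes I, III and IV pump protons, and complex V (ATP synthase) uses the return flow to make ATP. Most subunits are encoded in the nucleus and the rest in mitochondrial DNA; the mitochondrially encoded subunits were not analysed here. Myeloid leukaemia cells are known for a strong dependence on oxidative phosphorylation.

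Promoters of these genes are known for binding sites of NRF1, of the ETS factor GABP and of YY1. Of the 90 genes, 74 matched a promoter in a RefSeq table (build GRCm38.p6, from 250 bases before to 50 after the transcription start), with 80 promoters in all. The exact NRF1 palindrome was found in 6 of the 80 (7.5%), against 0.971% of all 32851 promoters in the table and 2.34% of those of expressed genes. A looser form with any base at 1 inner position, which includes the exact one, was found in 19 (23.8%), against 4.6% of all promoters and 11.3% of those of expressed genes. The YY1 motif AAGATGGCG was found in 9 (11.2%), against 1.4% and 3.48%. The ETS core CGGAAG was found in 31 (38.8%), against 16.9% and 33.8%, so its share was close to that of other expressed genes. Both strands were searched, and 29 of the 74 matched genes held none of these motifs. The promoters of 5 genes are shown: Ndufa9, Uqcrc1, Cox6a1 and Atp5g2 to give the motifs as they occur in complexes I, III, IV and V, and Ndufb8 because it had the largest difference of any of the genes in lineage B117. Bases in capitals mark the looser NRF1 form, the ETS core or the YY1 motif on either strand; Ndufb8 holds none of them.
Ndufb8, chr19:44555393-44555692, minus strand: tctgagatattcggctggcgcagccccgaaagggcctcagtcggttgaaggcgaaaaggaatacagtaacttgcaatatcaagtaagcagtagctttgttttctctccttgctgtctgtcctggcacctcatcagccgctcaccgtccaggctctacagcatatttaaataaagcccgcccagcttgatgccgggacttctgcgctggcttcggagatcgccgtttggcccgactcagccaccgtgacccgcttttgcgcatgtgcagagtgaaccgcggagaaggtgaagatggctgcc
Ndufa9, chr6:126849095-126849394, minus strand: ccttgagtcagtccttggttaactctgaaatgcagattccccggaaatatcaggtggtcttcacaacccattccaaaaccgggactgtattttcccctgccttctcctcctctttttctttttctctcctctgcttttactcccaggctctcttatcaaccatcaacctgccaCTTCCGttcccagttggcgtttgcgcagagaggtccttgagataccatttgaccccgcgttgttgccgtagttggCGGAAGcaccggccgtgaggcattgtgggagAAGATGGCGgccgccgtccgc
Uqcrc1, chr9:108936398-108936697, plus strand: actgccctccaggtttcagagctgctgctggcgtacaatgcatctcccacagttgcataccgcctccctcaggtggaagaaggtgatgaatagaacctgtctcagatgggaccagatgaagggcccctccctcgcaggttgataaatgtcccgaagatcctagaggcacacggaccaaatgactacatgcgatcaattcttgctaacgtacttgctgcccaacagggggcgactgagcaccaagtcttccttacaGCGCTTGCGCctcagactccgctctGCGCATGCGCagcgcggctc
Cox6a1, chr5:115348909-115349208, minus strand: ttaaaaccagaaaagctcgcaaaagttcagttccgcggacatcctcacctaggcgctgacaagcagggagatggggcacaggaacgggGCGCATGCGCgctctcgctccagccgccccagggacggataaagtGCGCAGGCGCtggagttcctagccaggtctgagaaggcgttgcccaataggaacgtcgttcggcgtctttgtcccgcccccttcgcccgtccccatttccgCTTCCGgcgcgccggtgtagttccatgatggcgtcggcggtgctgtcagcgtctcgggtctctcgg
Atp5g2, chr15:102670998-102671297, minus strand: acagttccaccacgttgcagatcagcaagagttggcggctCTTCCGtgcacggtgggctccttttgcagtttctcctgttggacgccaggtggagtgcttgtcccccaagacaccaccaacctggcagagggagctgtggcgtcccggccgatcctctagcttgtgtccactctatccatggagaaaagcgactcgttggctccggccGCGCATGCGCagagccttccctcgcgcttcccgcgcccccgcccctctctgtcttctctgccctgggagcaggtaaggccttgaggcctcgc
A match is a description of the letters and not evidence of binding. Median log2 ratios of resistant over parental lines were compared with and without the NRF1 motif: in lineage B140 they were 0.41 for the 18 expressed genes with the looser NRF1 form and 0.39 for the 53 without, and in lineage B117 0.07 and -0.01. For the exact palindrome they were 0.50 for 6 genes and 0.39 for 65 without in lineage B140, and 0.09 and -0.01 in lineage B117.

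From the spacing of low values, the libraries held an estimated 19590000 fragments in B117H, 22260000 in B117P, 24280000 in B140H and 19150000 in B140P. The unit of 1 fragment came from the same values, so this depth is approximate. At that depth the expressed genes rest on a median of between 2412 and 4482 fragments per library. The only values under 100 fragments were those of Cox6a2 and Cox7a1 in both B140 lines, at about 18 and 74 fragments in B140H and 8 and 15 in B140P. Listed positions were the same for both lines of a lineage, but for 6 multi-copy loci they were not the same in B117 as in B140, so each lineage may have had its own normalisation. Levels set across lineages carry that limit. Of 8 leukocyte and myeloid markers, 7 were found by symbol and all 7 were expressed, with summed levels of 665 FPKM in B117H, 1636 in B117P, 130.4 in B140H and 202 in B140P. Among them Ptprc, the common leukocyte antigen, was at 89.0, 74.5, 50.2 and 53.7 FPKM in B117H, B117P, B140H and B140P. Kit was listed at 0 in both B140 lines. Mpo made up most of the sums in lineage B117, at 473 FPKM in B117H and 1450 in B117P, against 0.914 in B140H and 10.4 in B140P. Cd33 alone of the 7 was lower in both B117 lines than in the B140 lines. It was at 10.6 FPKM in B117H and 8.58 in B117P, and at 54.8 in B140H and 120.1 in B140P. Of 5 B cell markers 2 were expressed, and the sum over all 5 was 0.611 FPKM in B117H, 2.07 in B117P, 80.5 in B140H and 51.9 in B140P. Cd79b was at 64.2 FPKM in B140H and 44.5 in B140P, against 0.546 in B117H and 1.67 in B117P. None of the 5 T cell and 5 stromal markers reached a mean of 1 FPKM, and 1 of 5 erythroid markers did, with sums between 1.78 and 4.47 FPKM. The part of these differences in the results between lineages was not tested.

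Oxidative phosphorylation genes were among the most abundant messages of all 4 lines. Of the 84 expressed genes, 67 (79.8%) ranked above percentile 90 of expressed genes other than small RNAs by mean FPKM. Leaving small RNA genes out of the total, they made up 3.41% of all FPKM in B117H, 3.38% in B117P, 4.41% in B140H and 3.56% in B140P. The B140H share was the highest of the 4 and the 2 lines of lineage B117 were close to each other. Complex V and complex IV genes had the highest levels: the median over complex V genes was 327 FPKM in B117H, 309 in B117P, 467 in B140H and 346 in B140P. Over complex II genes it was 97.1, 102, 136 and 133 FPKM in the same lines, and the assembly factors and other matches lay between 3.63 and 46.4 FPKM.

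**Figure D1:**
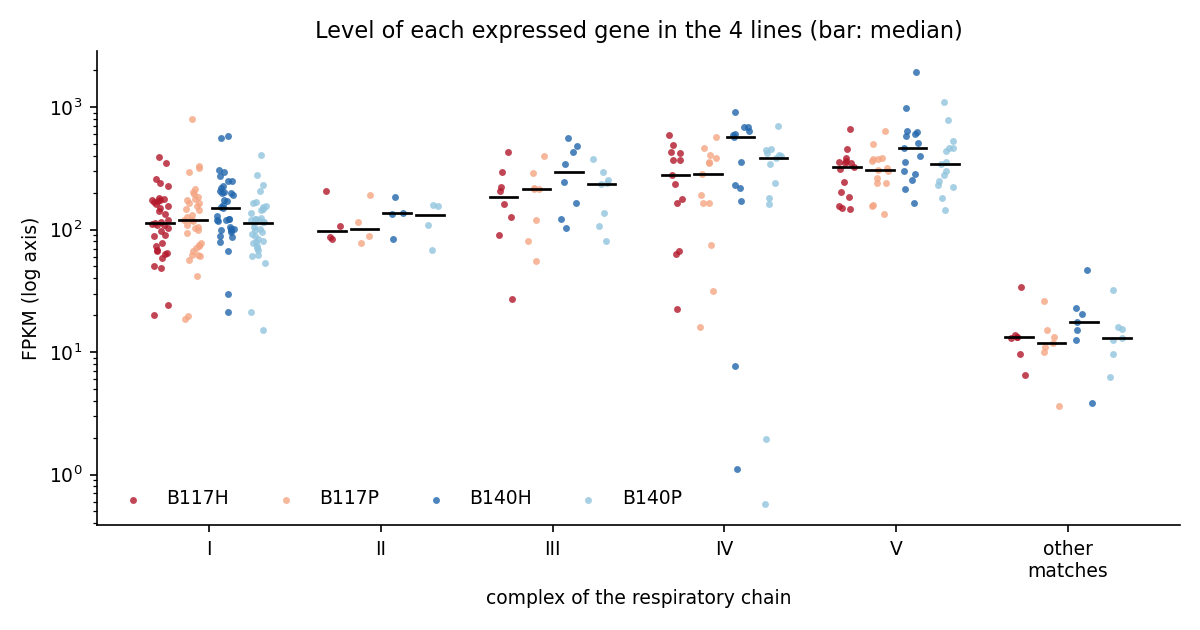
FPKM of the 84 expressed genes (log axis) by complex in B117H, B117P, B140H and B140P; each point is 1 gene and each bar the median. Points of complexes III to V stand highest in B140H, and 2 complex IV genes, Cox6a2 and Cox7a1, lie far below the rest in the B140 lines.

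The first comparison asks how far the genes of each resistant line stood from those of its parent. In lineage B117 they were level as a group: their median log2 ratio of B117H over B117P was 0.01, with quartiles of -0.12 and 0.15, beside -0.03 over all 10066 expressed genes. In lineage B140 nearly all were higher in the resistant line: the median of B140H over B140P was 0.40, with quartiles of 0.27 and 0.56, beside 0.11 over all genes. All ratios are of FPKM plus a pseudocount of 1, which understates the change of low genes. In lineage B140, 77 of the 84 (91.7%) were above 0 on this scale, against 63% of all expressed genes. In lineage B117, 43 of the 84 (51.2%) were above 0, against 46.3%. B140H was the highest of the 4 lines for 63 of the 84 genes, while it was so for 38.5% of all expressed genes.

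Few genes passed 2-fold. In lineage B117 none was higher, where 1.41% of all expressed genes were, and 2 were lower (2.38%), where 3.21% of all were. In lineage B140, 3 were higher (3.57%), beside 2.31% of all, and none was lower, beside 1.63%, or 3.94% in either direction. These shares are near those of all genes. Uqcrfs1 and Cox6a2 lie at the 2-fold line in lineage B117: with ratios centred on the median of all genes, and on a TPM scale without small RNA genes, Cox6a2 was past 2-fold higher and Uqcrfs1 no longer past 2-fold lower, so the split was 1 higher and 1 lower. At 1.5-fold the lineages parted: in B140 18 genes were higher (21.4%), beside 8.39% of all expressed genes, and none was lower, beside 4.68%. In B117 at 1.5-fold 2 were higher (2.38%), beside 4.66%, and 4 were lower (4.76%), beside 9.16%. On the scale of FPKM plus 1, no gene passed 1.5-fold in the same direction in both lineages. With none lower in B140 and 2 higher in B117, only those 2 could have done so. The share of all expressed genes that did is not given here. Cox6a2 was at 1.96-fold in lineage B117 and 1.33-fold in lineage B140. Its B140 levels, 1.10 FPKM in B140H and 0.577 in B140P, lie near the pseudocount of 1. The fold in lineage B140 therefore depends on the pseudocount. Atp5s, at a log2 ratio of -0.583 in lineage B140, lay just inside the 1.5-fold line.

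The higher level in B140H ran through every complex. The median log2 ratio in lineage B140 was 0.44 for complex I, 0.27 for complex II, 0.36 for complex III, 0.41 for complex IV and 0.34 for complex V. In lineage B117 the same medians were -0.03, 0.04, 0.02, 0.07 and -0.04. With all ratios centred on the median of all genes, the lineage B140 median over all 84 genes was 0.28, and on a TPM scale without small RNA genes it was 0.24. All 37 expressed complex I genes and all 8 complex III genes were above 0 in lineage B140 as deposited.

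**Figure D2:**
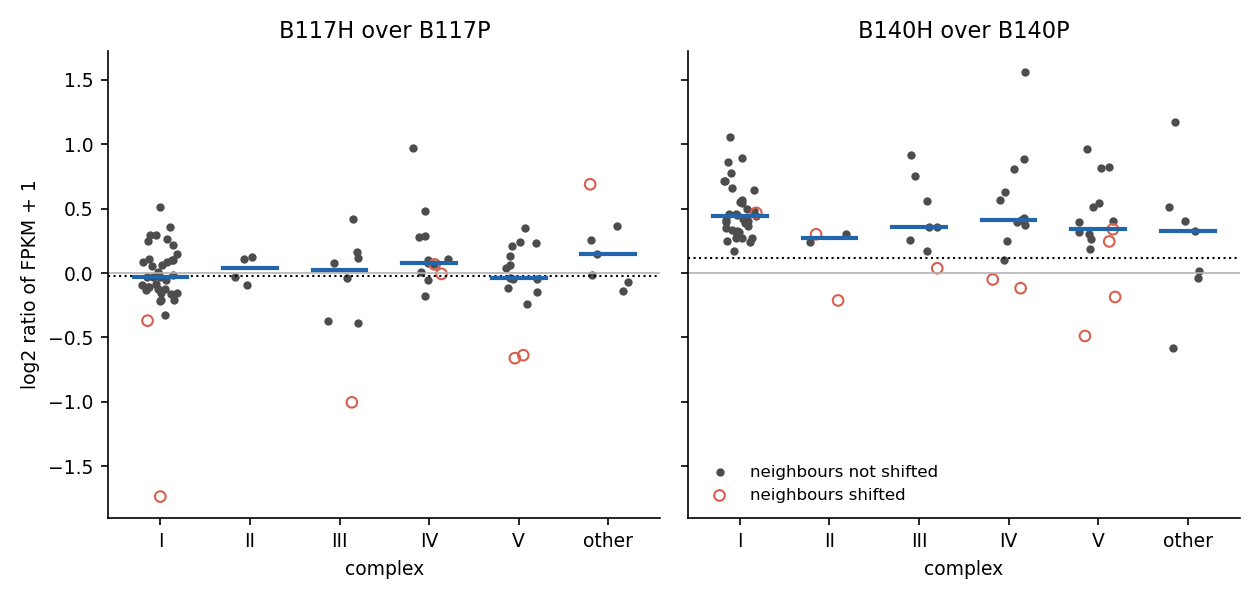
Log2 ratio of FPKM plus 1 for each expressed gene by complex, B117H over B117P on the left and B140H over B140P on the right; blue bars are medians of each complex and the dotted line is the median of all expressed genes. In lineage B140 complex medians lie between 0.27 and 0.44, and open circles mark genes whose chromosomal neighbours were shifted.

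Complex I comprises a conserved catalytic core and many accessory subunits. In lineage B140 the median log2 ratio of the 7 core genes, whose products carry flavin and iron-sulfur clusters, was 0.34, with a range of 0.17 to 0.48. The 30 expressed accessory genes had one of 0.46, with a range of 0.25 to 1.05. The same 2 groups stood at -0.02 and -0.03 in lineage B117. Ndufs3, a core subunit of the peripheral arm, was at 50.7 FPKM in B117H and 56.6 in B117P, and at 86.9 in B140H and 62.0 in B140P. Ndufv2, the core subunit with the lowest ratio of complex I in lineage B140, was at 99.4 FPKM in B140H and 88.2 in B140P.

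The highest complex I ratio in lineage B140 was that of Ndufa3, a small accessory subunit of the membrane arm. It was at 579 FPKM in B140H and 278 in B140P, a 2.08-fold difference. In lineage B117 it was at 348 FPKM in B117H and 293 in B117P, 1.19-fold. B140H stood apart from the other 3 lines for Ndufa3, which lay between 278 and 348 FPKM. The other accessory genes past 1.5-fold in lineage B140 were Ndufa7, Ndufa13, Ndufb2, Ndufb3, Ndufb4, Ndufb7 and Ndufb9. Ndufb7 was at 293 FPKM in B140H and 157 in B140P, and at 261 in B117H and 328 in B117P, so the lineages ran in opposite directions. Ndufa5, an accessory subunit, had the highest complex I ratio in lineage B117, at 96.8 FPKM in B117H and 67.5 in B117P, and was also higher in B140H (105 FPKM) than in B140P (70.8 FPKM).

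Ndufb8 is an accessory subunit of the membrane arm, widely used as a marker of assembled complex I. Its level was 241 FPKM in B117H and 804 in B117P, a log2 ratio of -1.74, or 3.33-fold lower in the resistant line. It was 309 FPKM in B140H and 231 in B140P. B117P alone was high, and B117H lay between the B140 lines. Ndufb8 was the gene with the highest level of complex I in B117P, while Ndufa4 held that place in B117H at 391 FPKM. Ndufa4, first assigned to complex I and now counted with complex IV, is kept here with complex I by its symbol, also in the counts and medians. It was at 319 FPKM in B117P, and at 562 in B140H and 408 in B140P. Its hypoxia-linked relative Ndufa4l2 was at 0.117 FPKM in B117H, 0.0523 in B117P and 0 in both B140 lines.

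Complex II is also an enzyme of the citric acid cycle, and all 4 of its genes were within 1.5-fold of the parent in both lineages. Sdha, the flavoprotein, was at 83.6 FPKM in B117H and 77.6 in B117P, and at 135 in B140H and 109 in B140P. Sdhb, the iron-sulfur subunit, was at 208 FPKM in B117H and 191 in B117P, and at 184 in B140H and 156 in B140P. The membrane anchors Sdhc and Sdhd diverged in lineage B140. Sdhc was at 107 FPKM in B117H and 115 in B117P, and at 83.4 in B140H and 67.5 in B140P. Sdhd was at 86.7 FPKM in B117H and 88.4 in B117P, and at 137 in B140H and 159 in B140P, the only complex II gene lower in B140H. The median log2 ratio of the neighbours of Sdhc in lineage B140 was 0.37 and that of the neighbours of Sdhd was -0.37. The neighbours of Sdhc and Sdhd thus stood on the same side of the other genes as Sdhc and Sdhd did.

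In complex III the gene of the Rieske iron-sulfur protein, Uqcrfs1, the subunit that takes electrons from ubiquinol, had the lowest level in all 4 lines. It was at 27.3 FPKM in B117H and 55.8 in B117P, 2.005-fold lower in the resistant line on FPKM plus 1 and just past the 2-fold rule. It was at 103 FPKM in B140H and 80.0 in B140P, so B117H was the lowest of the 4 lines. The core proteins Uqcrc1 and Uqcrc2 had log2 ratios between 0.08 and 0.26 in both lineages. The small subunits Uqcr10 and Uqcr11 passed 1.5-fold in lineage B140. Uqcr11 was at 555 FPKM in B140H and 294 in B140P, against 208 in B117H and 214 in B117P. Uqcr10 was at 431 FPKM in B140H and 254 in B140P, and at 162 in B117H and 213 in B117P. Uqcrh, the hinge protein, had the highest complex III level outside B140H, at 485 FPKM in B140H and 379 in B140P and at 434 in B117H and 400.2 in B117P. Uqcrb had the highest ratio of complex III in lineage B117 and the lowest in lineage B140, at 294 FPKM in B117H and 220 in B117P, and at 247 in B140H and 240.5 in B140P.

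In complex IV, which holds tissue-specific isoforms of several subunits, the widely expressed forms were high in all lines and the tissue forms were low or absent. Cox4i1, the common form of the largest nuclear subunit, was at 491 FPKM in B117H and 467 in B117P, and at 919 in B140H and 697 in B140P. Cox5b, a zinc-binding subunit, was the highest complex IV gene of lineage B117, at 594 FPKM in B117H and 566 in B117P, and at 608 in B140H and 410.4 in B140P. Cox5a, which is also on the matrix side, was at 236 FPKM in B117H and 193 in B117P, and at 356 in B140H and 386 in B140P, one of 2 complex IV genes lower in B140H. Cox6b1, Cox6c and Cox7b had log2 ratios of 0.43, 0.38 and 0.25 in lineage B140 and of 0.10, 0.07 and 0.01 in lineage B117. The lung form of Cox4, Cox4i2, was at 0.0810 FPKM in B117H and at 0 in the other 3 lines. The testis form Cox6b2 was at 0.145 FPKM in B117H and 0.132 in B140H and at 0 in both parental lines. The muscle form Cox8b and the testis forms Cox7b2 and Cox8c were listed at 0 in all 4 lines. At the estimated depth, 3 fragments on a transcript of 500 bases would be between 0.247 and 0.313 FPKM, so these 5 genes and Ndufa4l2 were at or under that limit. Past 1.5-fold in lineage B140 were Cox6a1, Cox7a1, Cox7c and Cox8a; Cox8a was at 692 FPKM in B140H and 448 in B140P, against 371 in B117H and 386 in B117P.

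The muscle isoforms Cox6a2 and Cox7a1 were the exceptions among tissue forms. Cox6a2 was at 62.7 FPKM in B117H and 31.4 in B117P, and at 1.10 in B140H and 0.577 in B140P. Its widely expressed counterpart Cox6a1 was at 432 FPKM in B117H and 356 in B117P, and at 694 in B140H and 396 in B140P. On the scale of FPKM plus 1, Cox6a2 was 30.3-fold higher in B117H than in B140H and 20.6-fold higher in B117P than in B140P. These folds depend on the pseudocount, since the B140 levels of Cox6a2 lie near 1 FPKM. Cox6a1 was instead higher in both B140 lines than in its B117 counterpart. Cox7a1 was at 22.6 FPKM in B117H and 15.9 in B117P, and at 7.76 in B140H and 1.97 in B140P. Its counterpart Cox7a2 was at 177 FPKM in B117H and 164 in B117P, and at 232 in B140H and 240 in B140P. The difference of Cox7a1 between B140H and B140P, 2.95-fold on FPKM plus 1, was the largest ratio of any of the genes in lineage B140. It rests on about 74 and 15 fragments. The coding sequences of Cox6a2 and Cox6a1 were 56.2% identical and those of Cox7a1 and Cox7a2 59.8%, with no identical run over 12 bases.

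The listed span of Cox6a2 overlaps that of Itgad, an integrin gene, and the reads of overlapping genes cannot be told apart without strand. Itgad was at 1.81 FPKM in B117H and 0.774 in B117P, and at 0.123 in B140H and 0.0540 in B140P, far below Cox6a2 in lineage B117. The integrin gene Itgax, next to it, was at 75.3 FPKM in B117H, 10.6 in B117P, 0.0101 in B140H and 0.0259 in B140P. The levels of Cox6a2, Itgad and Itgax were all higher in B117H than in B117P and lower again in both B140 lines. The wider neighbourhood did not share this. The median log2 ratio of the 24 nearest expressed neighbours of Cox6a2 was -0.08 for B117H over B117P, where Cox6a2 was at 0.97. It was 0.02 between the sensitive lines and -0.15 between the resistant lines, where Cox6a2 was at 4.36 and 4.92. The part of this neighbourhood in the levels of Cox6a2 was not tested.

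Complex V joins a catalytic F1 head, a peripheral stalk and a membrane part with a ring of c subunits. The F1 gene Atp5b, the catalytic beta subunit, was at 667 FPKM in B117H and 637 in B117P, and at 989 in B140H and 791 in B140P. All 5 F1 genes were higher in B140H than in B140P, with log2 ratios of 0.19 to 0.39. In lineage B117 the F1 ratios lay between -0.04 and 0.35, with Atp5e, the small epsilon subunit, highest. The membrane subunits Atp5j2 and Atp5k had log2 ratios of 0.81 and 0.82 in lineage B140, past 1.5-fold, whereas Atp5l was at -0.19. Atp5k was at 633 FPKM in B140H and 357 in B140P, and at 452 in B117H and 502 in B117P.

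The c ring is encoded by Atp5g1, Atp5g2 and Atp5g3, which are known to give the same mature protein from different genes. Their last 90 coding bases, from the GENCODE M21 transcripts, are shown because they bear on whether reads can be assigned to 1 gene; capitals mark the 24 positions at which the 3 differ.
Atp5g1: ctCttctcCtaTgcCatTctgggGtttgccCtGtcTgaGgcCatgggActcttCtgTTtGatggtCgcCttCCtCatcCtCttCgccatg
Atp5g2: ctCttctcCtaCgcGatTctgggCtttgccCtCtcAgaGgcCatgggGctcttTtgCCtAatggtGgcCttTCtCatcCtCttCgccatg
Atp5g3: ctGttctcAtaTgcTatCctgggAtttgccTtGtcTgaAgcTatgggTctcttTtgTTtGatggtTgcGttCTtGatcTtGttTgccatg
Over the whole coding sequence the 3 pairs were 66.6% to 68.6% identical, and no identical run was longer than 20 bases. Atp5g1 and Atp5g2 each also had 4 pseudogene transcripts in GENCODE M21 that match their coding sequence, at up to 99.8% and 100% identity, and Atp5g3 had none, so reads of Atp5g1 and Atp5g2 can be shared with these copies. Atp5g3 was at 357 FPKM in B117H and 309 in B117P, and at 625 in B140H and 439 in B140P. Atp5g2 was at 349 FPKM in B117H and 378 in B117P, and at 505 in B140H and 346 in B140P. Atp5g1 was the lowest of the 3 in every line, at 202 FPKM in B117H, 239 in B117P, 299 in B140H and 249 in B140P. All 3 were higher in B140H than in B140P, by log2 ratios of 0.26 to 0.54, and in lineage B117 Atp5g3 was higher and Atp5g1 and Atp5g2 lower, between -0.24 and 0.21.

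The peripheral stalk genes differed most among themselves. Atp5j, which encodes coupling factor F6, was at 151 FPKM in B117H and 240 in B117P, and at 283 in B140H and 145 in B140P. On FPKM plus 1 it passed 1.5-fold downward in lineage B117 and upward in lineage B140, the only gene of the 84 past 1.5-fold in both. The share of all expressed genes past 1.5-fold in both lineages is not given here. Atp5s, at 0.689 in lineage B117 and -0.583 in lineage B140 on the log2 scale, fell just short in lineage B140. Atp5o, the subunit that joins the stalk to F1, was at 247 FPKM in B117H and 384 in B117P, and at 354 in B140H and 280 in B140P. Atp5f1, subunit b, was at 146 FPKM in B117H and 133 in B117P, and at 166 in B140H and 233 in B140P, the lowest complex V ratio in lineage B140 at -0.49. Atp5h, subunit d, was higher in both resistant lines, at 310 FPKM in B117H and 263 in B117P and at 400 in B140H and 303 in B140P. The listed span of Atp5j overlaps those of Gabpa and LOC654426, and that of Atp5f1 overlaps Wdr77. Gabpa was at 16.01 FPKM in B117H and 18.0 in B117P. LOC654426 was at 139 FPKM in B117H and 147 in B117P, and at 131.5 in B140H and 179 in B140P. The log2 ratio of LOC654426 in lineage B140 was -0.445, where that of Atp5j was 0.961. Wdr77 was at 28.7 FPKM in B140H and 44.5 in B140P. The part of overlapping genes in these values was not tested.

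Among the other matches, Ndufaf3, which helps assemble complex I, was at 22.7 FPKM in B140H and 9.56 in B140P, 2.25-fold higher in the resistant line, and at 13.7 in B117H and 15.2 in B117P. Atp5s, named as a coupling factor of ATP synthase, was higher in B117H and lower in B140H than in the parent. It was at 6.46 FPKM in B117H and 3.63 in B117P, and at 3.83 in B140H and 6.23 in B140P. Ndufaf2, the most abundant assembly factor of the rule, was higher in both resistant lines, at 33.8 FPKM in B117H and 26.04 in B117P and at 46.4 in B140H and 32.3 in B140P. Cox4nb was at 13.3 FPKM in B117H and 11.9 in B117P, and at 20.4 in B140H and 16.1 in B140P.

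Several of the genes moved with the chromosome segment around them. For each gene the median log2 ratio of its 24 nearest expressed neighbours, none of them an oxidative phosphorylation gene, was taken, and a neighbourhood was called shifted when it lay at least 0.25 from the median of all genes. By this rule 17 of the 84 genes (20.2%) lay in a shifted neighbourhood in at least 1 lineage, beside 24.1% of all expressed genes, a share near the background; the count was 11 with 50 neighbours, and 36 or 10 at thresholds of 0.15 or 0.4. By lineage the genes were 8 (9.52%) in B117, beside 13% of all, and 10 (11.9%) in B140, beside 12%. In lineage B117 the neighbours were lower for Atp5j, Atp5o, Ndufb4, Cox6c, Ndufb8 and Uqcrfs1 and higher for Atp5s and Cox7c. In lineage B140 they were lower for Atp5f1, Atp5l, Cox5a, Cox7a2, Sdhd and Uqcrb and higher for genes that include Atp5d, Atp5o and Sdhc. In lineage B117 the 6 genes with lower neighbours had a median of -0.65 on the log2 scale, against 0.05 for the 76 in unshifted neighbourhoods. In lineage B140 the same medians were -0.15 for 6 genes and 0.41 for 74. Of the 7 genes below 0 in lineage B140, 5 had lower neighbours; the others were Atp5s and Ndufaf4. Across the 84 genes the neighbour median correlated with the gene's own ratio. Pearson r was 0.74 and Spearman rho 0.36 in lineage B117, and r was 0.45 and rho 0.27 for lineage B140; the genes share libraries, and neighbouring genes share neighbours.

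**Figure D3:**
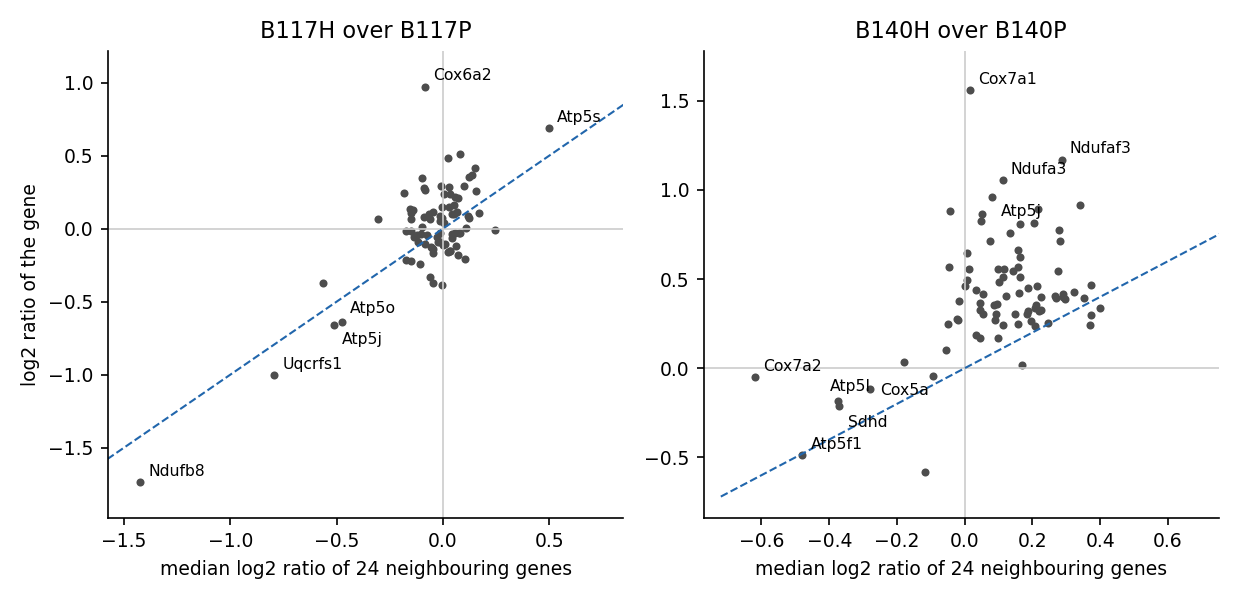
Log2 ratio of each of the 84 genes against the median log2 ratio of its 24 expressed neighbours, B117H over B117P on the left and B140H over B140P on the right; the dashed line marks equal values. Ndufb8, Uqcrfs1, Atp5j and Atp5o lie near the line at the low end of lineage B117, and Atp5f1, Atp5l and Sdhd near it in lineage B140, whereas Cox7a1, Ndufa3 and Ndufaf3 lie well above it.

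Whole chromosomes that were shifted by the same 0.25 rule held 11 of the genes for B117H over B117P and 6 for B140H over B140P. In lineage B117 these were chromosome 12, with Atp5s, at a median log2 ratio of 0.44, chromosome 16, with Atp5j, Atp5o and Ndufb4, at -0.47, and chromosome 13, with 7 of the genes, at -0.46. On chromosome 16 all 3 genes were lower in B117H. On chromosome 13 only Uqcrfs1 had lower neighbours, and the 7 genes had a median of 0.11. In lineage B140 chromosome 9 was lower, at -0.20, with Atp5l, Cox5a, Cox7a2, Sdhd, Ndufaf3 and Uqcrc1. The first 4 of these were below 0, while Ndufaf3 and Uqcrc1 were at 1.17 and 0.25, in a stretch whose neighbours were at 0.29 and 0.25. Chromosome 14 was also lower in lineage B140 and held none of the genes. Other expressed genes numbered 338, 377 and 325 on chromosomes 12, 13 and 16, and 533 and 346 on chromosomes 9 and 14. Expressed genes numbered 10066 in all, and the counts of 11 and 6 were not tested against these numbers.

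The drop of Ndufb8 in B117H came with a drop of the genes around it. Ndufb8 lies on chromosome 19, listed from 44624744 to 44629905 in mm9. Of the 18 other expressed genes within 1 Mb, 16 were past 2-fold lower in B117H than in B117P, where 3.21% of all expressed genes were, and their median log2 ratio was -1.61. B117P had the highest level of the 4 lines for 16 of the 18. Their median level was 9.47 FPKM in B117H, 30.9 in B117P, 10.6 in B140H and 9.91 in B140P, so B117P alone stood apart. Scd2, a fatty acid desaturase, was at 187 FPKM in B117H and 720 in B117P, and Chuk, a kinase of the NF-kB pathway, at 20.3 and 63.0. Other mitochondrial genes lie in the same stretch. Cox15, needed to make the haem a of complex IV, was at 9.59 FPKM in B117H and 28.3 in B117P. Mrpl43, a mitochondrial ribosomal protein, was at 28.1 FPKM in B117H and 126 in B117P. Peo1, the mitochondrial DNA helicase, was at 6.98 FPKM in B117H and 32.1 in B117P. Farther out, between 1 and 3 Mb, 51 expressed genes had a median of -0.45 and 5 of them were past 2-fold lower. These neighbours were looked at after their values were seen.

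For Uqcrfs1, on chromosome 13 from 30632181 to 30637185 in mm9, the 10 other expressed genes within 3 Mb were all lower in B117H than in B117P, with a median log2 ratio of -0.84 and a range of -1.79 to -0.15. In lineage B140 their median was -0.02. For Atp5f1, on chromosome 3, the 55 other expressed genes within 3 Mb had a median of -0.45 in lineage B140 and 0.03 in lineage B117, and B140P had the highest level of the 4 lines for 43 of them. Subtracting the neighbour median left Ndufb8 at -0.31, Uqcrfs1 at -0.21, Atp5j at -0.15 and Atp5o at -0.16 in lineage B117, and Atp5f1 at -0.01 in lineage B140. On that scale the genes past 2-fold in lineage B117 were 1 higher, Cox6a2, and none lower, and in lineage B140 1 higher, Cox7a1. The median of all 84 in lineage B140 was 0.26 on that scale.

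**Figure D4:**
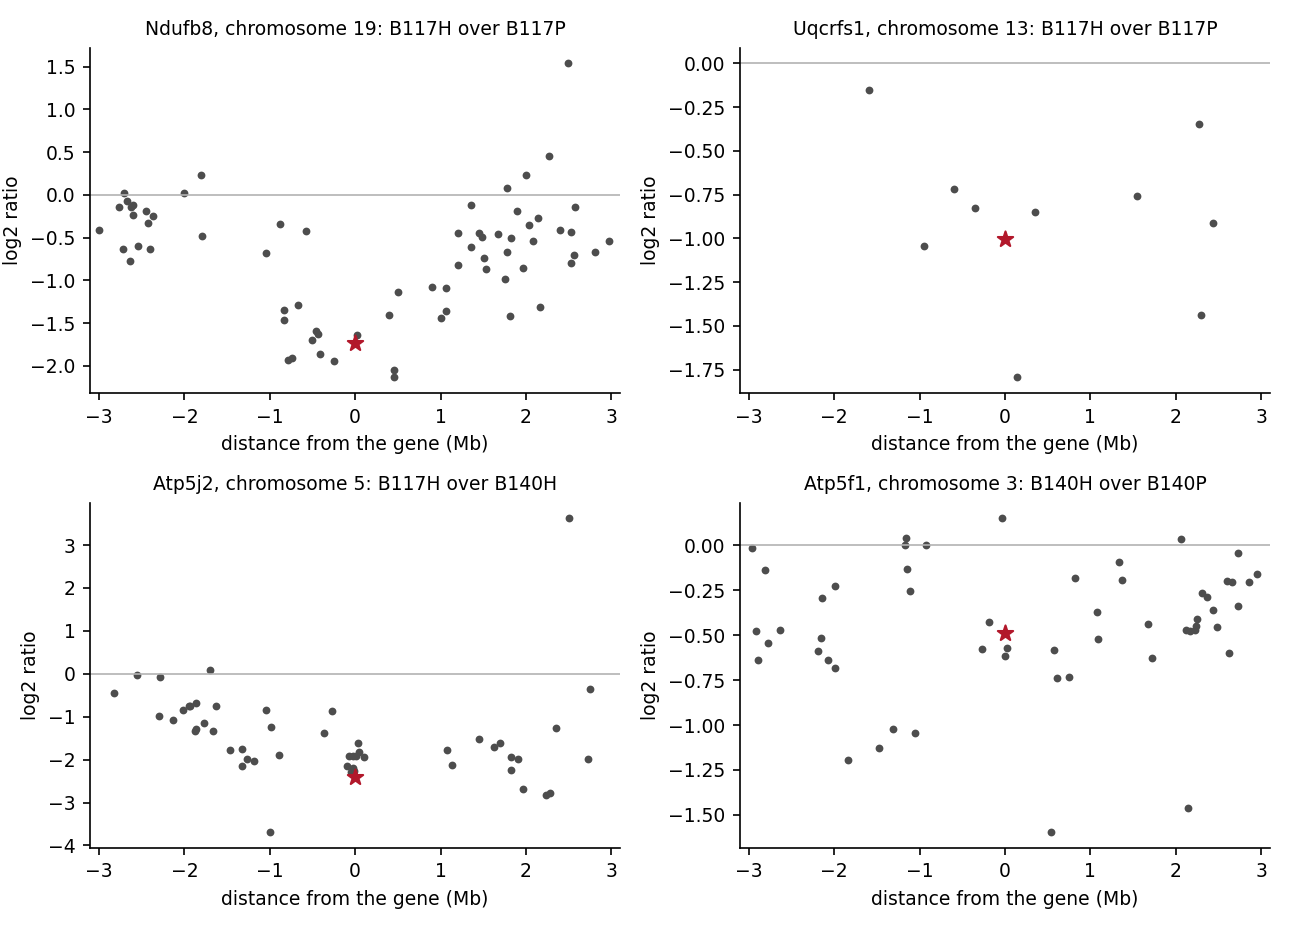
Log2 ratios of expressed genes within 3 Mb of Ndufb8 and Uqcrfs1 (B117H over B117P), Atp5j2 (B117H over B140H) and Atp5f1 (B140H over B140P), by distance in Mb; the star is the named gene. Ndufb8 sits in a trough in which 16 of 18 neighbours within 1 Mb were past 2-fold lower in B117H.

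Transcript length also went with the ratios in lineage B140. The median transcript of the genes was 838 bases long, against 2837 for expressed genes other than small RNAs that have a length, and 59.5% were under 1000 bases, against 6.87%. In lineage B140 other expressed genes, put in 6 classes from under 500 bases to the longest transcripts, had median log2 ratios of 0.33, 0.28, 0.30, 0.24, 0.17 and 0.05. The oxidative phosphorylation genes had medians of 0.70, 0.44, 0.41, 0.30, 0.30 and 0.30 in the same classes, with between 7 and 29 genes in each. In lineage B117 the other genes had medians below 0 in every class, the lowest -0.09. Short genes with a mean of 50 FPKM or more outside oxidative phosphorylation, 270 in number and under 1000 bases, had a median of 0.34 in lineage B140. The 77 expressed ribosomal protein genes, also short and abundant, had one of 0.04 there and 0.15 in lineage B117. The median of other genes of like length was then subtracted, an alternative added once the data were seen. On that scale the lineage B140 median of the 84 genes was 0.16, and 7 were past 1.5-fold higher and 2 lower. The share of all expressed genes past 1.5-fold on that scale is not given here. The part of transcript length in the higher ratios of lineage B140 was not tested beyond this.

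**Figure D5:**
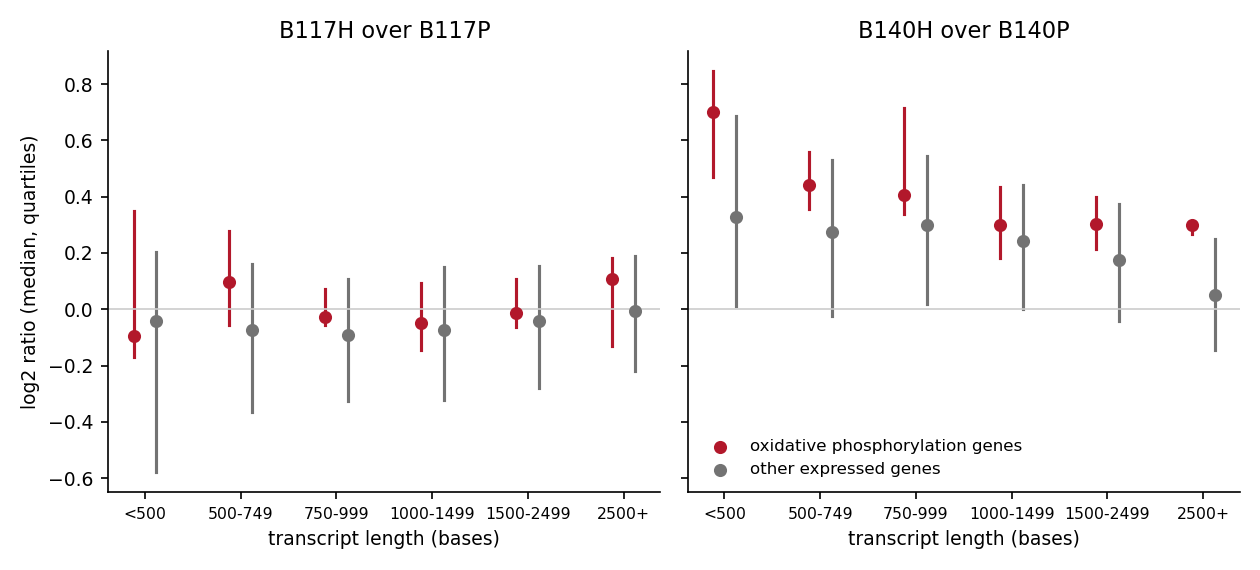
Median log2 ratio with quartiles (points and lines) by transcript length in bases, for oxidative phosphorylation genes in red and other expressed genes in grey; B117H over B117P on the left and B140H over B140P on the right. In lineage B140 both groups are higher at short lengths, with medians of 0.70 and 0.33 under 500 bases, and in lineage B117 they stay near 0.

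The change with resistance was tested by limma with the lineage as a block, across all 10066 expressed genes. It called none of the 84 genes and 0 genes in all (0%) at a Benjamini-Hochberg adjusted p of 0.05. At an unadjusted p under 0.05 there were 2 of the 84, beside 218 of all genes (2.17%). Cox7a1 had a mean log2 ratio of 1.02 with a standard error of 0.32, higher in 2 of 2 resistant lines, with an unadjusted limma p of 0.0197 and an adjusted p of 1. Cox6a2 had one of 0.69 with a standard error of 0.26, also higher in 2 of 2, with an unadjusted limma p of 0.0366 and an adjusted p of 1. The fit has 1 residual degree of freedom, so p-values lean on variance borrowed from other genes and measure the spread between these libraries. Of the 84 genes, 37 were above 0 in both lineages, 40 above 0 only in lineage B140, 6 only in lineage B117 and 1, Sdhd, in neither. By lineage 91.7% were above 0 in B140 and 51.2% in B117, beside 63% and 46.3% of all expressed genes. The share of all expressed genes above 0 in both lineages is not given here. The 37 are therefore not read as a shared change with resistance.

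The lineages were also compared in each state. Between the sensitive lines the 84 genes had a median log2 ratio of B117P over B140P of -0.13, beside 0.00 over all expressed genes. Past 2-fold, 5 were higher in B117P (5.95%), beside 10.8% of all genes, and 2 were lower (2.38%), beside 5.83%. The 5 were Cox6a2, Cox7a1, Ndufb7, Ndufb8 and Ndufs5. Ndufs5, an accessory subunit of complex I, was at 173 FPKM in B117H and 177 in B117P, and at 100.3 in B140H and 84.4 in B140P. Its listed span overlaps that of BC002163, a pseudogene copy of Ndufs5 at 99.4% identity, so reads can be shared between them. BC002163 was at 2.47 FPKM in B117H and 4.83 in B117P, and at 18.7 in B140H and 5.665 in B140P. The part of this copy in the levels of Ndufs5 was not tested. The 2 genes past 2-fold lower in B117P were Atp5j2 and Cox7a2l. At 1.5-fold 17 differed in either direction (20.2%), beside 33.3% of all genes.

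Between the resistant lines the median of B117H over B140H was -0.49, beside -0.15 over all expressed genes. Past 2-fold, 2 were higher in B117H (2.38%), beside 9.19% of all genes, and 6 were lower (7.14%), beside 9.69%. At 1.5-fold 30 were lower (35.7%), beside 21.9% of all genes, and 4 were higher (4.76%), beside 15%. The 6 past 2-fold lower were Atp5j2, Cox7a2l, Cox7c, Uqcr10, Uqcr11 and Uqcrfs1. These comparisons share the libraries of those above, so Uqcr10, Uqcr11 and Cox7c appear here through the same high B140H values. Cox7a2l, a factor that joins complexes III and IV into supercomplexes, is kept here with complex IV by its symbol, also in the counts and medians. Cox7a2l was at 66.5 FPKM in B117H and 75.5 in B117P, and at 173 in B140H and 161 in B140P. The neighbours of Cox7a2l were at 0.23 between the sensitive lines and -0.11 between the resistant lines. Its neighbours did not share the difference that Cox7a2l showed between lineages.

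Atp5j2, subunit f of ATP synthase, had the highest level of all the genes in the B140 lines, at 1924 FPKM in B140H and 1095 in B140P, against 365 in B117H and 377 in B117P. It was 5.26-fold lower in B117H than in B140H and 2.90-fold lower in B117P than in B140P. Its neighbours on chromosome 5 showed a difference of the same kind. All 15 other expressed genes within 1 Mb were past 1.5-fold lower in B117H than in B140H, 14 of them past 2-fold, with a median log2 ratio of -1.91. Their median level was 7.07 FPKM in B117H, 7.12 in B117P, 30.0 in B140H and 24.6 in B140P. Every one of the 15 had its highest level in a B140 line and its lowest in a B117 line. After the neighbour median was subtracted, the log2 ratio of Atp5j2 was -0.49 between the resistant lines and 0.00 between the sensitive lines.

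Genes that work with the complexes were read from fixed lists. Of 30 expressed assembly factors, which include Ndufaf1 to Ndufaf4, 3 were past 2-fold lower in B117H and none higher, with a median of -0.10, and 2 were past 2-fold higher in B140H and none lower, with a median of 0.23. Over all expressed genes 3.21% were past 2-fold lower and 1.41% higher in lineage B117, and 2.31% were higher and 1.63% lower in lineage B140. The 3 lower in B117H were Cox15, Cox17 and Cox18. Cox17, a copper chaperone, was at 106 FPKM in B117H and 222 in B117P, and at 192 in B140H and 103 in B140P. Cox18 was at 8.52 FPKM in B117H and 18.8 in B117P. The 2 higher in B140H were Ndufaf3 and Cox19, the second at 50.6 FPKM in B140H and 24.1 in B140P. Other complex IV factors of the list went both ways in lineage B117. On the log2 scale Cox16 was at 0.29 and Cox11 at 0.09, while Surf1 was at -0.361 and Sco2 at -0.305. Cox15 lies in the stretch around Ndufb8.

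Of 15 cytochrome c and coenzyme Q genes, 1 was past 2-fold lower in B117H, Coq2, which attaches the side chain of coenzyme Q, at 7.16 FPKM in B117H and 18.3 in B117P. None was past 2-fold in lineage B140, where the list had a median of 0.26. Of 17 expressed regulators of respiratory genes and mitochondrial DNA none was past 2-fold in either lineage, with medians of -0.06 and 0.21. Nrf1 was at 18.5 FPKM in B117H and 17.5 in B117P, and at 19.6 in B140H and 16.3 in B140P, while Myc was at 105 FPKM in B117H and 135 in B117P, and at 62.1 in B140H and 119.9 in B140P. The coactivator gene Ppargc1a was listed at 0 in all 4 lines. Of 14 citric acid cycle genes none was past 2-fold in either lineage, with medians of -0.08 for lineage B117 and 0.29 for B140. Mdh2, malate dehydrogenase, was the highest of them in lineage B140, at 534 FPKM in B140H and 268 in B140P. Of 14 pyruvate, adenine nucleotide and phosphate transport genes none was past 2-fold, with medians of 0.09 and 0.15. All of these lists had lineage B140 medians above that of all genes, at 0.11, and below that of the oxidative phosphorylation genes.

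Reads of some of the genes can be shared with other copies. Among the 84 expressed genes, 34 had at least 1 pseudogene transcript in GENCODE M21 that matched at 90% identity or more over at least 50% of the coding sequence, with 13 for Atp5l, the highest number. Ndufb8, Uqcrfs1, Ndufa3, Cox7a1, Cox6a2, Ndufaf3 and Atp5j had none, while Atp5j2 and Uqcr11 had 2 each, Cox7c 5, and Cox7a2l, Uqcr10, Ndufb7, Ndufs5 and Atp5f1 1 each. The listed spans of 10 of the 90 genes are shared with an overlapping gene.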

How the data were processed

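RNA of 4 cell lines was sequenced, 1 library each, and the authors deposited FPKM values per gene, made with TopHat2 2.0.4 and Cuffdiff on mm9 per the submitters' processing notes. Annotation and strand setting are not given in the sources used here. The members and gene lists were chosen with earlier results of these data known. Ratios are log2 of FPKM plus 1, over 10066 genes with a mean of 1 FPKM or more; 2-fold and 1.5-fold are rules of size and not tests. The resistant and parental lines were paired by lineage, since the labels derive each resistant line from its parent, and tested with limma 3.58.1 (R 4.3.3; lineage block, mean-variance trend, Benjamini-Hochberg adjustment), whose p-values measure the spread between these libraries. The limma step was tested on simulated data. FPKM carry no depth; fragments were estimated from 761 single-transcript genes of 3000 bases or more, where 72.5% to 81.6% of low values came within 0.15 of a whole number. Listed starts are counted from 0, so 1 was added. Named genes are those past 2-fold, the 2 highest by mean FPKM and the extreme ratios of each complex, all Sdh genes, isoform groups, genes in shifted neighbourhoods and genes listed at 0; others were named after their values were seen. Promoters are from RefSeq (GRCm38.p6) and coding sequences from GENCODE M21, used for names, letters and lengths and not for mm9 positions. Protein comparison of isoforms was not run, and a few results are not reported here. Tables were handled in pandas 2.3.3 with numpy 2.4.6 under Python 3.11.15, statistics came from scipy 1.17.1, and figures were drawn with matplotlib 3.10.9.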

Additional observations from a re-analysis of the deposited data

Results flagged for a closer look

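Atp5j, coupling factor F6 of ATP synthase, passed 1.5-fold in opposite directions in the 2 lineages, with log2 ratios of -0.66 for B117H over B117P and 0.96 for B140H over B140P, a difference of 1.62. With 1 library per line the difference was not tested. The 24 neighbours of Atp5j stood at a median of -0.51 for B117H over B117P and 0.08 for B140H over B140P, and their part in the difference was not tested.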

How the results depend on the processing

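Each ratio rests on 1 library per line, so it has no replicate error, and levels across lineages may rest on separate normalisations. Genes past 2-fold in lineage B117 numbered 2 as reported, 1 (higher) after subtracting the median of 24 neighbours and 0 without Ndufb8, Uqcrfs1 and genes sharing a listed span, while centring, TPM and like length kept a total of 2 but as 1 higher and 1 lower, without Uqcrfs1; past 1.5-fold they numbered 6, 1 and 2. In lineage B140 those past 2-fold numbered 3, and 1 after subtracting neighbours or genes of like length; those past 1.5-fold numbered 18, and 9 against genes of like length. Between sensitive lines 7 became 3 after subtracting neighbours and 4 without the same genes. Shares of all expressed genes past 2-fold or 1.5-fold after subtracting neighbours or like length are not given here. The lineage B140 median of 0.40 was 0.28 when centred, 0.24 as TPM without small RNA genes, 0.26 after subtracting neighbours and 0.16 against like length. Genes in shifted neighbourhoods numbered 17, but 11 with 50 neighbours, 36 at a threshold of 0.15 and 10 at 0.4. The like-length comparison and the removal of genes were chosen after seeing the data; beyond what each subtracts or leaves out, the cause was not tested. Among summary counts and medians, 62 other values stayed close to those reported, while of the values of single genes and complexes 201 moved and 481 did not. The sign changed for 43 of 698 ratios and medians, none of them past 1.5-fold as reported and 17 of them single genes after subtracting neighbours. In lineage B140 Atp5d went to -0.13 there and -0.05 against like length (0.25 as reported), and in lineage B117 the medians of complex II and complex V went to -0.02 and 0.04 (0.04 and -0.04). limma called 0 of the genes with the lineage block, 0 without the block or pairing, and 0 to 0 when each library was left out (without the block, the lone sample being assumed to vary like the others). Over all genes it called 0 in each setting except 4 at a mean of 5 FPKM or more and 6 without B140P.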
